A study of Homo sapiens with 4 samples.

Results

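The transcripts described here are those of 7 genes of cornification and of the upper layers of squamous epithelium: TGM1, ALOX12B, PI3, SLPI, KLK11, RHCG and LYPD3. They were chosen by name and looked up in 1 table of listed genes for each of 2 human head and neck squamous carcinoma lines, SCC1 and FaDu. The FaDu line was established from a hypopharyngeal squamous carcinoma. In each line, 1 RNA-seq library of total RNA came from cells given a siRNA against FOSL1 and 1 from cells given a control siRNA, taken 48 h after treatment, and the cells grew in DMEM with serum. The product of FOSL1 is FRA1, which pairs with JUN proteins to form AP-1 transcription factors. The tables hold 1903 genes for SCC1 and 1545 for FaDu, 2770 genes in all, each with a p-value of the authors' own comparison of at most 0.05. All 7 genes were in the FaDu table, and 1 of them, LYPD3, was in the SCC1 table. A gene outside a table was not analysed here, and it is not called unchanged.

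In stratified squamous epithelium, cells leave the basal layer, stop dividing and build a cornified envelope under the plasma membrane. Transglutaminases cross-link precursor proteins into this envelope, lipoxygenases process the lipids bound to its surface, and secreted proteases and their inhibitors set the rate at which surface cells are shed. Oral and pharyngeal epithelia run a form of this program that leaves many envelope proteins of skin at low levels. Carcinomas of these sites keep variable parts of it.

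With 1 library per group there is no replicate check, no test between conditions was made, and "higher" and "lower" compare 2 libraries. Levels are in CPM, read counts scaled to the effective library size. The effective sizes ran from 10365774 to 13242163 reads, so 1 read was worth 0.0755 to 0.0965 CPM. The range after each fold is an exact binomial interval at 95% confidence. It covers counting error only, and even that may be too narrow, since PCR copies were not told apart by molecular identifiers. The authors' p-values and FDRs also come from 1 library per group and do not measure variation between cultures. Those p-values lay within 1% of a count test in which the spread between replicates was assumed, at a dispersion of 0.05. FOSL1 itself had 3.99 CPM with FOSL1 siRNA and 133 CPM with control siRNA in SCC1, and 36.9 CPM with FOSL1 siRNA and 774 CPM with control siRNA in FaDu, so the target was lower in both lines. In a bulk culture, more cells that express a gene and more RNA per cell cannot be told apart.

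LYPD3 and ALOX12B have a promoter sequence in the RefSeq tables used here, as has KLK11, so that 3 of the 7 genes were matched. The sequence of LYPD3 is shown because it was the gene listed in both lines. That of ALOX12B is shown beside ALOXE3, its neighbour on chromosome 17 and its partner in the same lipid pathway, because these neighbours differed in direction in FaDu. Each runs from 250 bases before to 50 bases after an annotated start (build GRCh38.p14, minus strand, 5′ to 3′). Capitals mark matches to TGANTCA and to GGGCGG, the GC box, on either strand. TGANTCA is a loose form of the AP-1 motif: it allows any middle base, where the consensus has C or G.

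LYPD3, chr19:43465559-43465858: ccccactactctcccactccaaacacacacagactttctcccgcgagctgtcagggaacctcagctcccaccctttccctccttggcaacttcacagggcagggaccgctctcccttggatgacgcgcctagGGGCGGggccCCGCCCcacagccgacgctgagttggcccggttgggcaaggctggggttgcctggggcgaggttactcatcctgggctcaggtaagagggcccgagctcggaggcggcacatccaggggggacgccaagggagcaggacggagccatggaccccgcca
ALOX12B, chr17:8087667-8087966: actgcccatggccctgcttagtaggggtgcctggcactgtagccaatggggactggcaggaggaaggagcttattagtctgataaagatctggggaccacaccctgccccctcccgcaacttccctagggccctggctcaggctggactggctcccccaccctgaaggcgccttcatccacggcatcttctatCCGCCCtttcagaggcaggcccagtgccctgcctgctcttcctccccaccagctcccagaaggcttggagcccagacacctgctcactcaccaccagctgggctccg
ALOXE3, chr17:8118465-8118764: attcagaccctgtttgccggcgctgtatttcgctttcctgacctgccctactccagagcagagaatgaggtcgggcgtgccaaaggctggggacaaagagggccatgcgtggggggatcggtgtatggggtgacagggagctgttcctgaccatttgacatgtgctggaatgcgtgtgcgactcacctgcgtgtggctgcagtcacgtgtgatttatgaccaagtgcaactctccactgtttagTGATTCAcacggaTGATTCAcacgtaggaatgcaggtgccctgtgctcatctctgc

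The window of LYPD3 held 2 GC boxes and that of ALOX12B 1, and neither held TGANTCA. Neither of the 2 windows of KLK11 held TGANTCA, and 1 of them held 3 GC boxes. The ALOXE3 window shown held 2 copies of TGANTCA, both spelled TGATTCA, so neither copy was the AP-1 consensus itself. Of 3 annotated windows of ALOXE3, 2 overlap and hold these same copies, and the remaining window held 0. Among 35116 windows of the same length, 7.71% held TGANTCA and 45.0% held GGGCGG. The cyclic AMP response element TGACGTCA (1.85% of windows) and the TATA box TATAAA (11.5%) were also searched on both strands and had 0 matches in the windows of LYPD3, ALOX12B, KLK11 and ALOXE3. No match overlapped a match to another motif. A match is a description of letters, and no binding was measured.

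In FaDu, TGM1, the transglutaminase that cross-links the cornified envelope, had 8.49 CPM (88 reads) with FOSL1 siRNA and 1.22 CPM (14 reads) with control siRNA. It was thus 6.96-fold higher with FOSL1 siRNA (3.94 to 13.3). LYPD3, which encodes a GPI-anchored surface protein of the Ly6/uPAR family found in suprabasal squamous cells, had 91.8 CPM (952 reads) with FOSL1 siRNA and 13.3 CPM (153 reads) with control siRNA, 6.89-fold higher (5.80 to 8.23). All 7 genes were listed as higher in FaDu, where 4.76% of the 13796 genes that the authors tested were. The genes were chosen with earlier results of these data known, so nothing is read from that count. Their folds ran from 2.27 to 9.97 with a median of 6.64, and 6 of the 7 lay above 2.76, the median fold of all 656 listed higher genes of FaDu. At least 4-fold higher were 6 of the 7, where 1.30% of the tested genes were listed with such a rise. With control siRNA, 6 of the 7 had under 2 CPM, and the median of the listed higher genes was 4.01 CPM. A gene with few reads meets the p-value limit only with a large fold, so nothing is read from these comparisons either. Few reads lay behind most of these folds: the 6 genes other than LYPD3 had at most 88 reads with FOSL1 siRNA and at most 21 with control siRNA.

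**Figure D1:**
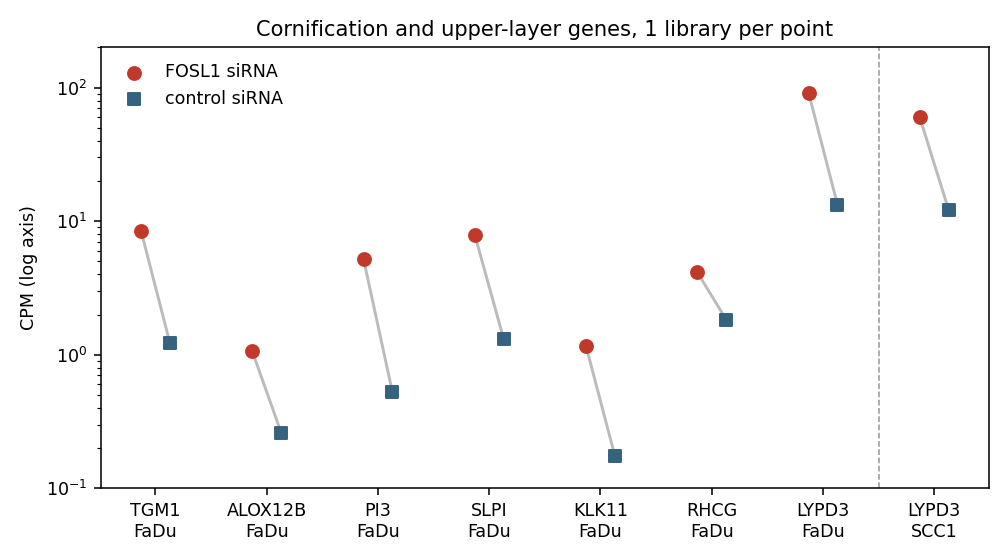
CPM on a log axis for each of the 7 genes in the FaDu libraries and for LYPD3 in the SCC1 libraries (right of the dashed line). Each point is 1 library, circles for FOSL1 siRNA and squares for control siRNA, and every circle lies above its square.

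PI3 and SLPI, which encode inhibitors of neutrophil elastase, were among the higher genes of FaDu. PI3 encodes elafin, which transglutaminases attach to the envelope. It had 5.21 CPM (54 reads) with FOSL1 siRNA and 0.523 CPM (6 reads) with control siRNA. Its fold of 9.97 was the largest of the 7 genes, but with 6 control reads the interval ran from 4.29 to 28.3. SLPI, the secreted leukocyte protease inhibitor of mucosal surfaces, had 7.91 CPM (82 reads) with FOSL1 siRNA and 1.31 CPM (15 reads) with control siRNA, 6.05-fold higher (3.46 to 11.3). PI3 and SLPI both belong to the whey acidic protein family and lie near each other on chromosome 20, with the seminal protein genes SEMG1 and SEMG2 between them, which were in neither table. The authors' deposited table for FaDu gave an FDR of 0.000457 for PI3, 0.000587 for TGM1 and 0.00171 for SLPI. In the same deposited table, LYPD3 had an FDR of 1.27e-05, the smallest of the 7 genes, and its p-value ranked 10 among the 656 higher genes.

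The remaining genes rested on few reads or on a smaller fold. KLK11, a kallikrein, one of the secreted serine proteases of which several cleave the junctions between cornified cells, had 12 reads (1.16 CPM) with FOSL1 siRNA and 2 reads (0.174 CPM) with control siRNA, a ratio of 6.64 (1.48 to 61.1). ALOX12B, the lipoxygenase that starts the oxidation of envelope lipids, had 11 reads (1.06 CPM) with FOSL1 siRNA and 3 reads (0.261 CPM) with control siRNA, a ratio of 4.06 (1.07 to 22.7). Both intervals reach from just above 1 to over 20, so these reads set the size of the differences only loosely. In GENCODE 29, exons of ALOX12B overlap exons of the gene AC129492.1 on the opposite strand. The strand setting of the counting is not given in the sources used here, so reads of these genes cannot be told apart.

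RHCG, an ammonium transporter of kidney and of squamous epithelium such as that of the oesophagus, had 43 reads (4.15 CPM) with FOSL1 siRNA and 21 reads (1.83 CPM) with control siRNA, 2.27-fold higher (1.32 to 4.02). This was the smallest fold of the 7 genes. The authors' deposited table for FaDu gave RHCG a p-value of 0.0468 with an FDR of 0.408. Among the p-values of the 7 genes, this was the nearest to the limit of 0.05 that every listed gene met. The authors' deposited table gave ALOX12B an FDR of 0.365 and KLK11 one of 0.155. Thus 4 of the 7 genes had an FDR under 0.05, a limit that 1.25% of the tested genes met as higher in FaDu. Such FDRs rest on 1 library per group and an assumed spread. KLK11 and ALOX12B had 14 reads each over both libraries, near the fewest of any listed FaDu gene, 11.

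**Figure D2:**
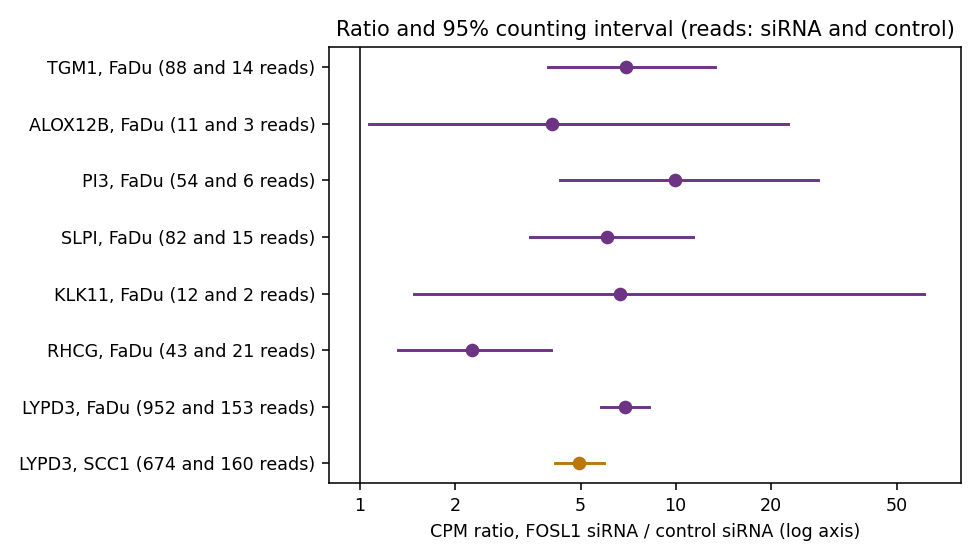
Ratio of CPM with FOSL1 siRNA to CPM with control siRNA on a log axis, with the 95% exact binomial interval as a line; the reads of both libraries stand beside each gene. The intervals of KLK11 (1.48 to 61.1) and ALOX12B (1.07 to 22.7) are the widest, and those of LYPD3 in both lines are the narrowest.

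To set the genes beside each other, CPM was divided by the summed length of each gene's exons in GENCODE 29. On this per-length scale, LYPD3 led in FaDu at 54.2 CPM per kb with FOSL1 siRNA (exact Poisson interval 50.8 to 57.8) and 7.87 with control siRNA (6.67 to 9.22). SLPI followed at 13.3 CPM per kb with FOSL1 siRNA (10.6 to 16.5) and 2.19 with control siRNA (1.23 to 3.62). PI3 had 9.03 CPM per kb with FOSL1 siRNA (6.78 to 11.8) and 0.906 with control siRNA (0.332 to 1.97). The intervals of PI3 and SLPI therefore overlapped in both libraries. TGM1 had 3.06 CPM per kb with FOSL1 siRNA (2.45 to 3.77) and 0.439 with control siRNA (0.240 to 0.737). RHCG had 2.09 CPM per kb with FOSL1 siRNA (1.51 to 2.82) and 0.923 with control siRNA (0.571 to 1.41), overlapping TGM1 in both libraries. KLK11 and ALOX12B were lowest, at 0.718 and 0.422 CPM per kb with FOSL1 siRNA and at 0.108 and 0.104 with control siRNA, and their intervals overlapped each other. With control siRNA, the interval of KLK11 (0.0131 to 0.390) also overlapped those of TGM1 and PI3, and that of ALOX12B (0.0214 to 0.304) overlapped that of TGM1.

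In SCC1, LYPD3 had 59.7 CPM (674 reads) with FOSL1 siRNA and 12.1 CPM (160 reads) with control siRNA, 4.94-fold higher (4.16 to 5.91). Listed as higher in SCC1 were 5.60% of the 13796 tested genes. At least 4-fold higher, as LYPD3 was, were 1.15% of them. The authors' deposited table for SCC1 gave LYPD3 an FDR of 0.00048, under 0.05 as for 1.57% of the tested genes that were higher. The control levels of LYPD3 in the lines, 12.1 CPM in SCC1 and 13.3 CPM in FaDu, stand in tables that were normalized separately. The fold intervals of SCC1 (4.16 to 5.91) and FaDu (5.80 to 8.23) overlapped, and with 1 library per group the difference between the lines was not tested. Of the 678 genes listed in both tables, 227 were higher in both, and 11 of these exceeded the fold of LYPD3 in both lines. TGM1, ALOX12B, PI3, SLPI, KLK11 and RHCG were not in the SCC1 table. The fewest reads of any listed SCC1 gene, summed over both libraries, were 12, so a gene with fewer reads there could not be seen in it.

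The genes most like LYPD3 were sought among the other 677 genes listed in both tables, by the distance of log2(CPM + 1) centred over the 4 libraries. The nearest was EPHB3, an ephrin receptor, at a distance of 0.35, with 18.1 CPM with FOSL1 siRNA and 4.53 CPM with control siRNA in SCC1, and 32.0 CPM with FOSL1 siRNA and 3.49 CPM with control siRNA in FaDu. CLEC7A, a C-type lectin receptor, followed at 0.51, PVRL4, which encodes the adhesion protein nectin-4, at 0.65, PALM at 0.71 and CYP1B1 at 0.95. In FaDu alone, the distance of log2(CPM + 1) over its 2 libraries was taken without centring, so it compares levels as well as ratios. By this measure, SLPI was the nearest of 1544 genes to TGM1 at 0.11. The tight junction gene TJP3 came next at 0.12. GRHL3, a transcription factor of the epidermal barrier, was the nearest gene to PI3 at 0.16. LHX1 was the nearest to RHCG at 0.09, with 4.15 CPM with FOSL1 siRNA and 1.66 CPM with control siRNA. KLK11 shared its read counts with 3 genes, ADGRB1 and FCHO1 among them, and ALOX12B with 4, among them CYP4F3, SERPINF2 and SLCO4C1, so at these counts the measure tells no gene apart. These distances were taken over the libraries that chose the listed genes and carry no test.

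Neighbouring genes were looked up by name. Of the 38 further protein-coding genes within 3 places of any of the 7 genes in RefSeq's order on the chromosome, 0 were listed as higher in FaDu and 3 as lower, and in SCC1 1 was higher and 5 were lower. Of all tested genes, 6.44% were listed as lower in FaDu and 8.19% in SCC1, and nothing particular to these neighbours is read from the counts. The kallikreins on either side of KLK11, KLK8, KLK9, KLK10, KLK12, KLK13 and KLK14, were in neither table. The whey acidic protein genes beside PI3, WFDC5 and WFDC12, were in neither table. ALOXE3, the lipoxygenase that acts on the product of ALOX12B, had 0.868 CPM (9 reads) with FOSL1 siRNA and 3.92 CPM (45 reads) with control siRNA in FaDu, 4.52-fold lower (2.18 to 10.5). In SCC1, ALOXE3 had 0.532 CPM (6 reads) with FOSL1 siRNA and 6.95 CPM (92 reads) with control siRNA, 13.1-fold lower (5.78 to 36.5). ALOXE3 was therefore lower in both lines, and ALOX12B was higher in FaDu.

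Across 9 lists of cornification and upper-layer genes, 188 genes in all, 19 were higher and 8 lower in FaDu, and 8 were higher and 9 lower in SCC1. Without the 7 genes described above, 12 of 181 were higher in FaDu (6.63%, against 4.76% of all tested genes) and 8 were lower (4.42%, against 6.44%). Without them, 7 of 181 were higher in SCC1 (3.87%, against 5.60% of all tested genes) and 9 lower (4.97%, against 8.19%). At least 4-fold higher were 13 of the 188 in FaDu (1.30% of all tested genes), of which 6 are among the 7 genes, and 2 in SCC1 (1.15%), LYPD3 and GPX2. At least 4-fold lower were 3 of the 188 in FaDu (1.38% of all tested genes) and 4 in SCC1 (1.44%). These lists and those below were chosen with earlier results of these data known. They were also not limited to genes that the authors tested, so their shares are not on the same base as the background. The median log2 ratio of the listed genes of the 181 was 1.47 in FaDu and -0.99 in SCC1. That of all listed genes was -1.02 in FaDu and -1.05 in SCC1. No listed gene had a fold under 1.88, so the sign of such a median follows the direction with more listed genes. Nothing is read from the distance between these medians.

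Envelope building blocks were looked up next. Of 43 envelope precursors and scaffold genes, which include involucrin, loricrin, filaggrin and the SPRR and LCE families, 1 was higher and 0 lower in FaDu, and 1 was higher and 1 lower in SCC1. Of all tested genes, 4.76% were higher and 6.44% lower in FaDu, and 5.60% were higher and 8.19% lower in SCC1. How many of the 43 the authors tested was not analysed here. The higher gene in both was HRNR, which encodes hornerin, with 12 reads with FOSL1 siRNA and 3 with control siRNA in FaDu, a ratio of 4.43 (1.20 to 24.5). In SCC1, HRNR had 25 reads with FOSL1 siRNA and 8 with control siRNA, 3.67-fold higher (1.60 to 9.41). SCEL, encoding the envelope protein sciellin, had 1 read with FOSL1 siRNA and 23 with control siRNA in SCC1, a ratio of 19.6 in favour of the control (3.18 to 807). Of 8 transglutaminases, TGM1 was the listed gene in FaDu, and 0 were listed in SCC1. Of 26 kallikreins and other desquamation proteases, KLK11 was the listed gene in FaDu, and 0 were listed in SCC1. Of 22 lipid barrier genes, 2 were higher and 2 lower in FaDu, and 1 was higher and 1 lower in SCC1. Beside the lipoxygenases, CERS3, the ceramide synthase of the skin barrier, was 3.18-fold higher in FaDu (1.37 to 8.23), and ELOVL4, an elongase of long fatty acids, was 2.27-fold lower (1.57 to 3.34).

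Of 24 protease inhibitors, 3 were higher in FaDu (12.5%, against 4.76% of all tested genes) and 4 lower (16.7%, against 6.44%), and 17 were not in the table. In SCC1, 0 were higher and 5 lower (20.8%, against 8.19% of all tested genes), and 19 were not in the table. The 3 higher genes, PI3, SLPI and WFDC2, belong to the whey acidic protein family, and the first 2 are among the 7 genes. Both the list and the 7 genes were chosen with results known. WFDC2 was 2.79-fold higher (1.79 to 4.45). The lower genes of both lines were clade B serpins. Naming the listed genes by family was chosen after their values were seen and carries no test. SERPINB1, an inhibitor of neutrophil elastase as are elafin and SLPI, had 30.4 CPM with FOSL1 siRNA and 108 CPM with control siRNA in FaDu, 3.56-fold lower (3.14 to 4.04). In SCC1, SERPINB1 had 36.3 CPM with FOSL1 siRNA and 135 CPM with control siRNA, 3.72-fold lower (3.34 to 4.15). SERPINB7 was 9.84-fold lower in SCC1 (5.31 to 20.2), and in FaDu it had 1 read with FOSL1 siRNA and 17 with control siRNA, a ratio of 15.4 in favour of the control (2.41 to 642). SERPINB8 was lower as well, by 3.32-fold in SCC1 (2.30 to 4.90) and by 2.52-fold in FaDu (1.69 to 3.85).

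**Figure D3:**
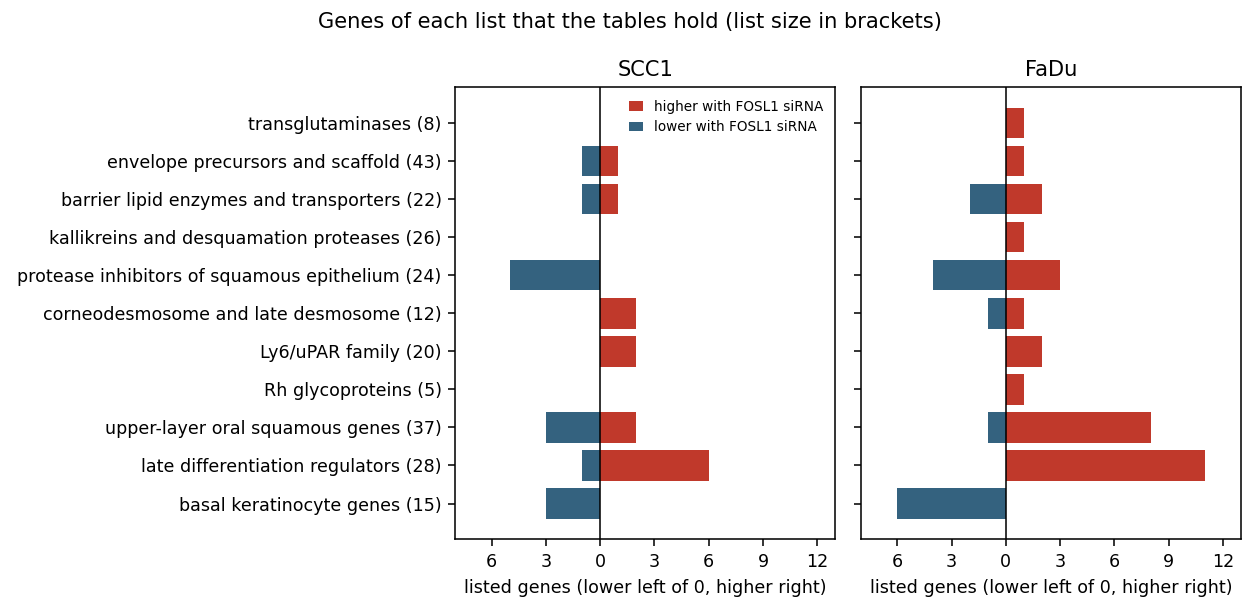
Number of genes of each list that were higher (right of 0) or lower (left of 0) with FOSL1 siRNA, for SCC1 and FaDu, with the list size in brackets. In FaDu the upper-layer oral genes (8 higher, 1 lower) and the late differentiation regulators (11 higher, 0 lower) lie mostly to the right among the listed genes, and the basal genes (0 higher, 6 lower) lie to the left.

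Genes that mark the upper layers of oral epithelium were counted next. Of 37, 8 were higher in FaDu (21.6%, against 4.76% of all tested genes) and 1 was lower (2.70%, against 6.44%). In SCC1, 2 were higher (5.41%, against 5.60%) and 3 lower (8.11%, against 8.19%). The whole list, with RHCG as 1 of the 8, was chosen with earlier results of these data known. Nothing is therefore read from these shares. Of the 8, 5 were at least 4-fold higher. MUC4, a membrane mucin, had 4.53 CPM with FOSL1 siRNA and 0.958 CPM with control siRNA in FaDu, 4.73-fold higher (2.42 to 10.1). KRT13 and KRT4 are the keratin pair of suprabasal mucosal cells. KRT13 had 9.45 CPM with FOSL1 siRNA and 0.784 CPM with control siRNA in FaDu, and KRT4 had 6.37 CPM with FOSL1 siRNA and 1.57 CPM with control siRNA. ALDH3A1, an aldehyde dehydrogenase of squamous mucosa and cornea, was 2.64-fold higher in FaDu (2.35 to 2.97). GPX2, a glutathione peroxidase of epithelia, was 2.77-fold higher in FaDu (2.50 to 3.06) and 6.07-fold higher in SCC1 (3.63 to 10.7). The lower genes in SCC1 were SCEL, DMKN at 1.99-fold (1.77 to 2.25) and EMP1 at 1.97-fold (1.72 to 2.27). The sign of DMKN and EMP1 turned when the median fold of listed genes was set to 0. That median is below 1 by construction, so small falls must turn and this is no check of direction. PRSS22, a serine protease, was 3.86-fold higher in SCC1 (3.16 to 4.74) and was the lower gene of this list in FaDu, at 39.6 CPM with FOSL1 siRNA and 83.6 CPM with control siRNA.

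The protein families of LYPD3 and RHCG were looked up as well. Of 20 Ly6/uPAR genes, 2 were higher (10.0%, against 4.76% of all tested genes) and 0 lower in FaDu, and LYPD3 was 1 of the 2. The other was LY6D, a marker of stratified epithelium, with 7.14 CPM (74 reads) with FOSL1 siRNA and 0.784 CPM (9 reads) with control siRNA, 9.10-fold higher (4.55 to 20.7). In SCC1, LYPD3 and LY6E were higher (10.0%, against 5.60% of all tested genes), LY6E by 1.98-fold (1.89 to 2.08), and 0 were lower. PLAUR, the urokinase receptor gene, and LYPD5 were in neither table. Of 5 Rh glycoproteins, RHCG was the listed gene in FaDu and 0 were listed in SCC1. Of 12 desmosome genes, PKP1 was 3.30-fold higher in FaDu (2.85 to 3.83). DSC3, a desmosomal cadherin, had 407 reads with FOSL1 siRNA and 997 reads with control siRNA in FaDu, where it was 2.21-fold lower (1.97 to 2.49). In SCC1, DSC3 had 403 reads with FOSL1 siRNA and 212 reads with control siRNA and was 2.23-fold higher (1.88 to 2.65). PERP was 1.98-fold higher in SCC1 (1.90 to 2.06).

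Of 28 regulators of late differentiation, 11 were higher in FaDu (39.3%, against 4.76% of all tested genes) and 0 lower, and 17 were not in the table. In SCC1, 6 were higher (21.4%, against 5.60% of all tested genes) and 1 lower, and 21 were not in the table. The list was chosen with earlier results of these data known and was not limited to tested genes. Nothing is therefore read from these shares. The authors' deposited tables gave 4 of the higher genes in FaDu and 3 in SCC1 an FDR under 0.05. At least 4-fold higher were 3 in FaDu and 1 in SCC1. GRHL3 had 5.40 CPM with FOSL1 siRNA and 0.697 CPM with control siRNA in FaDu, 7.75-fold higher (3.68 to 18.8), and was 2.35-fold higher in SCC1 (1.76 to 3.15). TINCR, a noncoding RNA known to promote epidermal differentiation, was 6.15-fold higher in FaDu (2.99 to 14.2) and 7.43-fold higher in SCC1 (5.95 to 9.36). ZNF750, a repressor of progenitor genes in keratinocytes, was 5.54-fold higher in FaDu (3.09 to 10.6), and ELF3, an epithelial ETS factor, 3.04-fold higher (2.84 to 3.27). CEBPA was 3.11-fold higher in SCC1 (2.28 to 4.30), and VDR, the vitamin D receptor gene, was the lower regulator there at 2.75-fold (2.26 to 3.37). Of 15 basal genes, 6 were lower in FaDu (40.0%, against 6.44% of all tested genes) and 3 in SCC1 (where 8.19% of all tested genes were), and 0 were higher in either line. The FaDu count rests on small folds. None of the 6 was at least 4-fold lower, and with the median fold of listed genes set to 0, 1 of the 6 was still at least 1.5-fold lower and the sign of COL17A1 and DST turned. In SCC1, 2 of the 3 were at least 4-fold lower, and 2 were at least 1.5-fold lower with that scaling. The median fold of listed genes is below 1 by construction, so the scaling shrinks every fall. Nothing is read from the scaled counts or the turned signs.

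Of the 215 genes of these 9 lists and the regulators, 14 were listed in both lines, as were 678 of the 13796 genes tested per line. The lists were chosen with earlier results of these data known, so nothing is read from that count. LYPD3, HRNR, GPX2, GRHL3, OVOL1, CEBPA and TINCR were higher in both, 7 in all. ALOXE3, SERPINB1, SERPINB2, SERPINB7 and SERPINB8 were lower in both, 5 in all. DSC3 and PRSS22 were higher in SCC1 and lower in FaDu. Of all 678 genes listed in both lines, 227 were higher in both, 428 were lower in both and 23 were opposite. Nothing is read from the split of the 14 genes either.

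**Figure D4:**
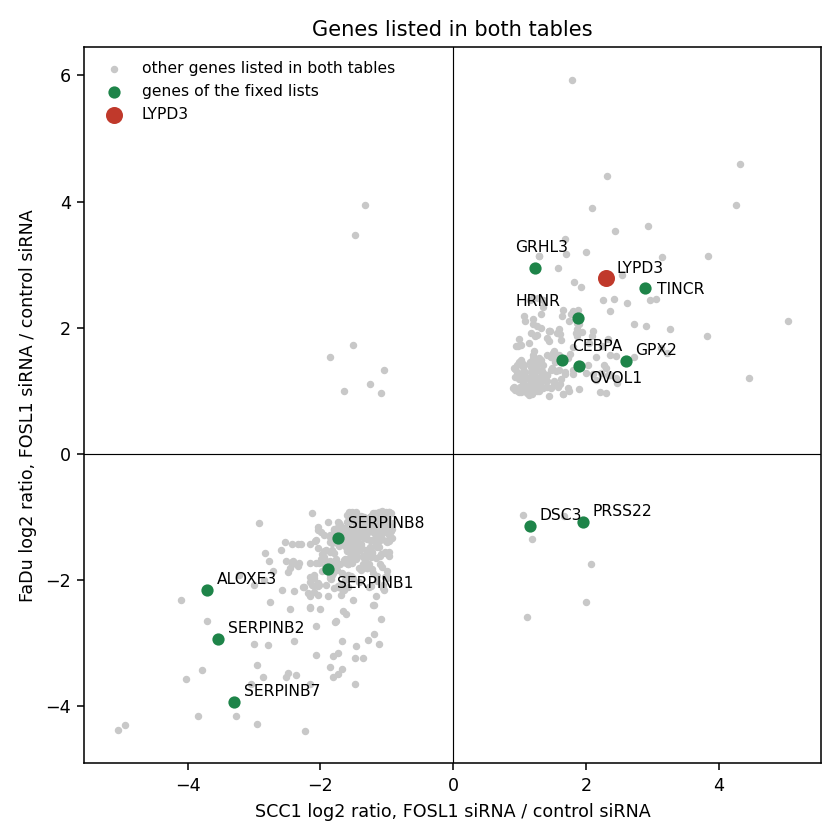
Log2 ratio of FOSL1 siRNA to control siRNA in SCC1 (horizontal) and FaDu (vertical) for 663 genes listed in both tables; 15 further genes with 0 reads in a library are left out. Green points are the genes of the fixed lists and the red point is LYPD3, at 2.31 in SCC1 and 2.78 in FaDu.

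Markers of other cell types were also looked up. Of 6 squamous keratinocyte markers, KRT17, which has near-identical pseudogenes, was listed as higher in FaDu. It had 2609 CPM with FOSL1 siRNA and 794 CPM with control siRNA there, and it was not in the SCC1 table. The other markers were in neither table, so the label of the lines could not be checked on those. Of 11 fibroblast markers, 3 were lower in FaDu (27.3%, against 6.44% of all tested genes), and 0 were listed in SCC1. Their summed level in FaDu was 6.17 CPM with FOSL1 siRNA and 16.7 CPM with control siRNA, and 0 of the 3 were at least 4-fold lower. Of 11 leukocyte markers, CD14 was higher and CD68 lower in FaDu, with a summed level of 15.0 CPM with FOSL1 siRNA and 38.3 CPM with control siRNA, and CD68 was lower in SCC1. Of 7 endothelial markers, 0 were listed. Of 13 glandular markers, the gel-forming mucin gene MUC5AC had 26 reads (2.51 CPM) with FOSL1 siRNA and 0 reads with control siRNA in FaDu, at least 9.60-fold higher by a floor of 3 reads per library. In SCC1, MUC1 was higher and KRT7 lower. The part of these markers in the levels of the 7 genes was not tested.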

How the data were processed

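There was 1 RNA-seq library in each of 4 groups, prepared with a KAPA kit, per the labels' protocols. TopHat, Cufflinks and hg18 are named, per the submitters' processing notes; their roles and versions, the counter and the strand setting are not stated in those sources. The authors deposited CPM: 100% of values were whole multiples, within 0.01, of what 1 read is worth, so reads were recovered. The deposited score is a signed fold of siRNA over control, with the authors' p-value and FDR. From FDR and p-value, the authors tested 13796 genes per line, and up to 100 (SCC1) and 94 (FaDu) genes within the ranks of the listed ones were not analysed here.

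Folds are ratios of CPM. The 7 genes, the lists and the rule for named genes (up to 6 per list and line, by log2(CPM + 1)) were chosen with earlier results of these data known. The joint count over 9 lists and the genes PRSS22, PLAUR, LYPD5 and LY6E beyond that rule were chosen after values were seen. Reads were tested by edgeR 4.0.16 (R 4.3.3) with a likelihood ratio test at assumed dispersions of 0.05 and 0.16, which compares 2 libraries, not conditions. Read recovery, intervals and this test were tested on simulated data. Python 3.11.15, numpy, pandas, SciPy and matplotlib were used. Some genes that the rule takes are left out of the text.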

Additional observations from a re-analysis of the deposited data

How the results depend on the processing

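The 8 log2 ratios of the 7 genes, all above 0, kept their direction in 4 settings that could not turn it, so this is no check of direction. The settings were pseudocounts of 1 and 0.1 CPM and the median log2 ratio set to 0, either of all listed genes (-1.05 in SCC1, -1.02 in FaDu) or of those listed in both tables (-1.16 and -1.13). Those medians are negative by construction, since the tables hold more lower than higher genes and no small differences. These scalings add 1 amount to every ratio of a line. With them LYPD3 in SCC1 moved to 3.36 and 3.47, TGM1 to 3.81 and 3.93, SLPI to 3.61 and 3.72, RHCG to 2.20 and 2.31, LYPD3 in FaDu to 3.80 and 3.91, ALOX12B to 3.04 and 3.15, PI3 to 4.33 and 4.44, and KLK11 to 3.75 and 3.86. With a pseudocount of 1 CPM, ALOX12B moved to 0.71, KLK11 to 0.88 and PI3 to 2.03, by construction, since their control levels were under 1 CPM. Of the 7 genes higher in FaDu, 4 remained at 5 CPM in a library and 4 at an authors' FDR under 0.05. In alternatives chosen after seeing the data, the count test on the recovered reads called 7 of 7 at a dispersion of 0.05, where it called all 1545 listed FaDu genes and 1903 listed SCC1 genes and lay within 1% of the authors' p-values. At 0.16 it called 5 of 7, without ALOX12B and RHCG, and 461 FaDu and 483 SCC1 genes at an unadjusted p under 0.05. With more than 3 reads in both libraries, 5 remained. LYPD3 in SCC1 was called in each of these. Over the 9 lists, a fold of 4 left 2 higher and 4 lower in SCC1 and 3 lower in FaDu, scaling left 4 lower in FaDu, and leaving out the 7 genes left 12 higher in FaDu. Older symbols added 0 genes. With a fold of 4, the higher regulators of late differentiation came to 3 in FaDu and 1 in SCC1, the higher oral upper-layer genes of FaDu to 5 and the lower basal genes of FaDu to 0, or to 1 with scaling. Of 240 counts of single lists, 31 moved by over 1.5 times and 209 did not. Many of the 209 could not move, since a count of 0 stays 0 in these settings and older symbols added 0 genes. Differences that rest on 1 to 3 reads in a library are limited by depth.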
